A study of Mus musculus with 6 samples.

Results

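Megakaryocyte and platelet genes were followed in progenitors of mouse bone marrow that a Hes1-GFP reporter had split into positive and negative cells. The list holds 37 genes, chosen by name for their part in megakaryocytes and platelets. Of these, 32 had a probe set whose annotation gives that symbol alone, out of 18193 genes with such a probe set, and together they had 54 of the 45037 probe sets tested. Gp1ba, Mpig6b, Ptgs1, Serpine2 and Bin2 had none and were not analysed here. Where a gene had several probe sets, the brightest on average over the 6 arrays stood for it. All values are log2 of the deposited intensity unless stated, and every change is GFP-positive minus GFP-negative. A gene was called when limma's Benjamini-Hochberg adjusted p over all 45037 probe sets was under 0.05, and "rose" and "fell" are used for called genes only.

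The cells were lineage-negative, c-Kit-positive and Sca-1-negative, which is the surface phenotype of myeloerythroid progenitors. They came from male mice aged 6 weeks, and all 6 samples carried the genotype Hes1 GFP/WT. GFP-positive and GFP-negative cells gave 3 Affymetrix arrays each. The design sets reporter-positive against reporter-negative cells of the same sorted population. Nothing in the labels ties the arrays of a group to separate animals, and the p-values therefore cover only array-to-array spread, which may be technical. No source used here describes how the reporter allele was built. With 3 arrays in each group, precision is limited by their number.

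Megakaryocytes arise from progenitors within this sorted population that also give rise to red cells, and they shed platelets into the blood. Platelets carry receptors for von Willebrand factor, collagen, fibrinogen, thrombin and nucleotides, and alpha granules filled with chemokines and adhesive proteins. GATA1 with its partner FOG1 and the ETS factor FLI1 are known to drive many of these genes, and several of the genes are also active in stem cells, monocytes or lymphocytes. In RNA from sorted cells, fewer cells of a type and less RNA per cell cannot be told apart.

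The platelet genes did not move as a block. Of the 32 measured members 1 rose and 8 fell, and 23 were not called. Gp5, a subunit of the von Willebrand factor receptor, rose 2.43-fold. Zyx, Plek, P2rx1, Selp, F2rl3, Mef2c, Itgb3 and F2r fell, from 3.38-fold for Zyx to 1.41-fold for F2r. Pf4 and Ppbp, the chemokines of alpha granules, lay above the GFP-negative arrays in all GFP-positive arrays, but neither passed the test. The adjusted p closest to the threshold was 0.0476 among called members (Selp) and 0.0586 among the others (Pf4).

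For the background, 18.1% of all 18193 genes were called in the same comparison, 8.15% as higher and 9.92% as lower. Among all 45037 probe sets, 14% were called. The members' 9 calls make 28.1% of the 32. Their median log2 change was -0.05, and over all genes the median was 0.11. After the median of each array was subtracted, the median was 0.03 for the members and 0.185 for all genes. Of the members 14 had a change above 0 (43.8%), against 64.6% of all genes. The groups did not overlap in 16 of 32 members, and over all genes they did not overlap in 45.6%. Of all called probe sets 45.3% were higher, and 61.5% were higher after the median of each array was subtracted, a scaling under which 4 members rose.

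**Figure D1:**
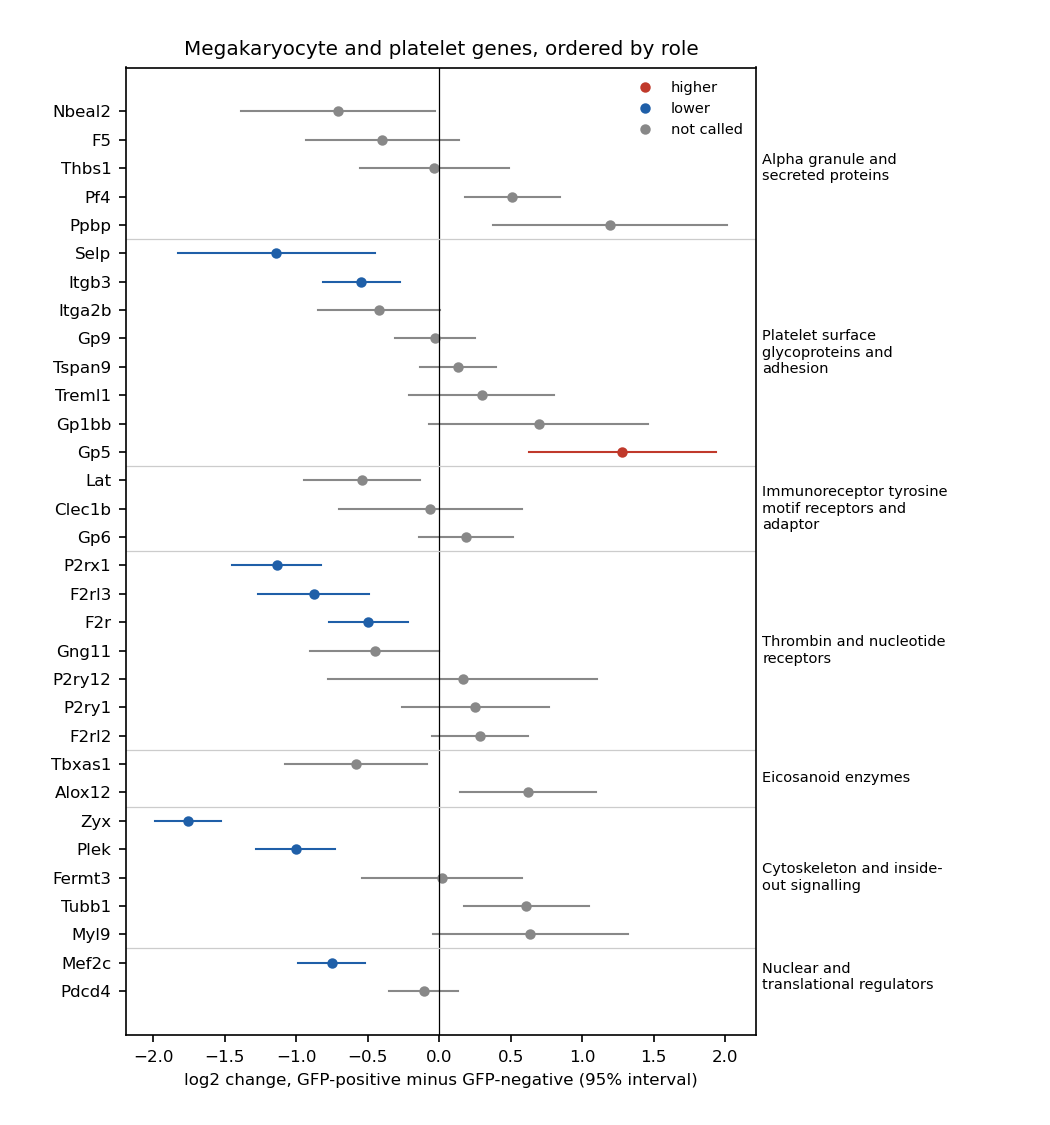
Log2 change (x axis, GFP-positive minus GFP-negative, with its 95% interval for that gene alone) of the 32 measured members (y axis), grouped by role. Red marks the 1 member that rose, blue the 8 that fell and grey the 23 that were not called; calls in both directions occur among the surface glycoproteins.

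Some calls were lost when 1 array was left out, but all called members kept the sign of their change. Over the whole table these fits called 1212 to 2243 probe sets higher and 2192 to 3098 lower, against 2860 and 3452 with all arrays. Zyx, Plek, P2rx1 and Mef2c, 4 of the 9 called members, kept their calls whichever array was left out. When GFP-negative array 1 or 3 was dropped, 5 members fell and 0 rose. Dropping GFP-negative array 2 left 4 that fell and gave 3 that rose. For GFP-positive array 2 these counts were 4 and 0, and for GFP-positive array 3 they were 4 and 2. Dropping GFP-positive array 1 gave 9 that fell and 1 that rose.

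Some facts of the whole series bear on these values. The array medians ran from 59.9 to 64.9 on the linear scale, and arrays of a group correlated across probe sets at r = 0.989 to 0.993 against 0.973 to 0.979 between groups. Hes1, the gene of the reporter, was at 5.74, 6.01 and 5.90 in the GFP-negative arrays and at 7.20, 7.12 and 7.13 in the GFP-positive arrays, which goes with the labels. Kit, on which the cells were sorted, lay at 11.31 to 11.53 in GFP-negative and at 11.13 to 11.24 in GFP-positive arrays. Its change of -0.25 was not called (limma adjusted p = 0.138). Jchain, the joining chain of immunoglobulins and a marker of plasma cells, was at 8.85 in GFP-negative array 3 and 8.65 in GFP-positive array 1, and at 3.64 to 4.08 in the other 4 arrays. With these 2 arrays removed 0 members rose and 6 fell, and F2r, Gp5, Itgb3 and Mef2c lost their calls. Over the whole table that fit called 681 probe sets higher and 1652 lower, against 2860 and 3452 with all arrays.

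The promoters of 5 members are shown because they stand for the different outcomes: Gp5 rose, F2rl3, Selp and Plek fell, and Pf4 was not called. Each run is the 250 bases before the transcription start in RefSeq (build GRCm38.p6), read 5′ to 3′ on the strand of the gene. Capitals mark AGATAA, a motif of GATA factors, and AGGAAG, a motif of ETS factors, on either strand, so that TTATCT and CTTCCT are the same motifs on the opposite strand. No 2 matches overlapped in these runs. Gp5 lies at chr16:30310782-30311031 (minus strand), Pf4 at chr5:90772185-90772434 (plus), F2rl3 at chr8:72761409-72761658 (plus), Selp at chr1:164115014-164115263 (plus) and Plek at chr11:17008719-17008968 (minus).
Gp5: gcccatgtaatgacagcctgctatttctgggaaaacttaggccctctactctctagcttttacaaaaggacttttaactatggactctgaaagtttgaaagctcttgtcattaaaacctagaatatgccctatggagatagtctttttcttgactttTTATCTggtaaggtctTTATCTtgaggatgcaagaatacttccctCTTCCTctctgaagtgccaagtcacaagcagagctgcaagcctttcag
Pf4: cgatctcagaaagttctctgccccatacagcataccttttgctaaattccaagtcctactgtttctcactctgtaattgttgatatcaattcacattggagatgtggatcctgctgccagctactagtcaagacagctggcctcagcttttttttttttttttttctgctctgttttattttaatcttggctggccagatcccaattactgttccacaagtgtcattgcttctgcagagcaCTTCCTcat
F2rl3: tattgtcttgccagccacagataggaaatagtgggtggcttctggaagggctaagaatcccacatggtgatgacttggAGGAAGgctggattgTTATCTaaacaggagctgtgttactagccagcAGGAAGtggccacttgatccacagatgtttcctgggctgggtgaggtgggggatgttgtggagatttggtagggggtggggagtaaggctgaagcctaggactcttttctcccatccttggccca
Selp: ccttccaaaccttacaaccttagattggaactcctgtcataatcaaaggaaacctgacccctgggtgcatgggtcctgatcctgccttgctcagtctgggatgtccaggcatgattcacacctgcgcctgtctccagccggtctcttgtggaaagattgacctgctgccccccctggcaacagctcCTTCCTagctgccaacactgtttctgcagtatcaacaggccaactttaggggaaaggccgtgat
Plek: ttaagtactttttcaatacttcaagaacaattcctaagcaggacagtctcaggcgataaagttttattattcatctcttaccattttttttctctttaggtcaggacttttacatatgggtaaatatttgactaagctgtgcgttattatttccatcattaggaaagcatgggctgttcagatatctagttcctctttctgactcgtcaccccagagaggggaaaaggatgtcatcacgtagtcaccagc

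Gp5 held 2 GATA motifs, at 93 to 88 and 77 to 72 bases before the start, and an ETS motif at 48 to 43. F2rl3, which fell, also held both kinds, with a GATA motif at 157 to 152 and ETS motifs at 172 to 167 and 125 to 120 bases before the start. Pf4 had an ETS motif at 9 to 4 and Selp at 64 to 59 bases before the start, and Plek had neither. The table of promoters had 39 entries for 33 of the 37 listed genes. AGATAA was found in 6 of these 39 (15.4%) against 9.99% of all 32851 promoters of the same length, and AGGAAG in 18 (46.2%) against 29.5%. Both together were found in F2rl2, F2rl3 and Gp5, and in 2.95% of all promoters. A match describes the letters and is not a measured binding site.

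The receptor for von Willebrand factor, the GPIb-IX-V complex, tethers platelets to damaged vessel walls, and 1 of its 3 measured subunits was called. Over all genes the share called was 18.1%. Gp5, the glycoprotein V subunit, had log2 intensities of 8.22, 8.50 and 7.73 in GFP-negative arrays 1 to 3 and 9.82, 9.47 and 9.0 in GFP-positive arrays 1 to 3. Every GFP-positive array was above every GFP-negative array. The log2 change was 1.28 ± 0.27 (SE; limma adjusted p = 0.0280). The call survived the loss of GFP-negative array 2 or GFP-positive array 3 but not of any other array (highest adjusted p 0.0827). With both Jchain-bearing arrays removed the change of Gp5 was 0.88 and its adjusted p was 0.114.

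Gp1bb, the glycoprotein Ib beta chain of the complex, was at 7.29, 7.27 and 6.73 in GFP-negative and at 8.47, 7.55 and 7.36 in GFP-positive arrays. Its GFP-positive array 1 stood well above the rest, and the change of 0.70 did not pass (95% interval -0.07 to 1.46; adjusted p = 0.191). Without GFP-positive array 1 the change was 0.36, and with both Jchain-bearing arrays removed 0.18. A second probe set of Gp1bb gave 0.25 (adjusted p = 0.453). Gp9, the subunit that stabilises the complex, was level at 8.80 ± 0.06 and 8.77 ± 0.17 (SD, n = 3 each), with a change of -0.03 and an interval of -0.31 to 0.25. Whether Gp5 differed from Gp9 in its change was not tested.

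The fibrinogen receptor is a pair of integrin chains that links platelets into a clot, and both chains pointed lower. Itgb3, the beta chain, fell from 9.32, 9.37 and 9.33 to 8.99, 8.75 and 8.65, without overlap. The log2 change was -0.54 ± 0.11 (SE; adjusted p = 0.0259), and among the 6 fits that each drop 1 array only that lacking GFP-positive array 1 kept the call (highest adjusted p 0.0882). The other probe set of Itgb3 lay near 5 on every array and changed by 0.20 (adjusted p = 0.342), and the mean of both probe sets changed by -0.17 and was not called (adjusted p = 0.147). Itga2b, the alpha chain known as CD41 and a surface marker of megakaryocyte progenitors, was at 8.57, 8.72 and 8.62 in GFP-negative and at 8.61, 7.99 and 8.07 in GFP-positive arrays. GFP-positive array 1 lay within the GFP-negative range while the other 2 were lower. The change of -0.42 was not called (adjusted p = 0.165), but it was -0.61 with an adjusted p of 0.0231 when GFP-positive array 1 was left out. That fit alone, of the 6 that each drop 1 array, called Itga2b (highest adjusted p 0.351).

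Selp, P-selectin, is stored in granules of platelets and endothelial cells and recruits leukocytes once exposed. Its log2 intensity was 8.91, 8.62 and 8.94 in GFP-negative arrays and 8.31, 7.18 and 7.56 in GFP-positive arrays. The groups did not overlap, but the GFP-positive arrays spread over more than 1 log2 unit. Selp fell by 1.14 ± 0.29 (SE) on the log2 scale, a 2.20-fold difference (adjusted p = 0.0476). Dropping any array but GFP-positive array 1 ended this call (highest adjusted p 0.138). All 3 probe sets of Selp pointed lower and 2 were called. Treml1, a receptor of the alpha granule membrane, changed by 0.30 (adjusted p = 0.376) and the tetraspanin Tspan9 by 0.13 (adjusted p = 0.458).

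Among alpha granule contents and their makers, limma called 0 of 5 measured genes. Of the 5, 3 had an unadjusted p under 0.05, against 6743 of all 18193 genes. Pf4, platelet factor 4, a chemokine of alpha granules, was at 11.54, 11.84 and 11.40 in GFP-negative and at 12.23, 12.07 and 12.02 in GFP-positive arrays. The groups did not overlap, and the change was 0.51 ± 0.14 (SE; adjusted p = 0.0586). Ppbp, the precursor of a further platelet chemokine, was at 6.44, 7.06 and 5.75 against 7.65, 7.29 and 7.90. Its groups did not overlap either, although the GFP-negative arrays spread by more than 1 log2 unit, and the change was 1.20 ± 0.34 (SE; adjusted p = 0.0666).

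Both chemokine genes sat close to the threshold, and each was called in 5 of 15 alternative settings. Without GFP-negative array 2 the adjusted p was 0.0426 for Pf4 and 0.0345 for Ppbp. That fit alone, of the 6 that each drop 1 array, called them (highest adjusted p 0.16 and 0.162). Nbeal2, needed to build alpha granules, was lower in every GFP-positive array (5.27, 6.21 and 6.20 against 6.37, 6.82 and 6.63) but not called (adjusted p = 0.145). The clotting cofactor F5 changed by -0.40 (adjusted p = 0.271) and Thbs1, the adhesive protein thrombospondin, by -0.03 (adjusted p = 0.932).

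**Figure D2:**
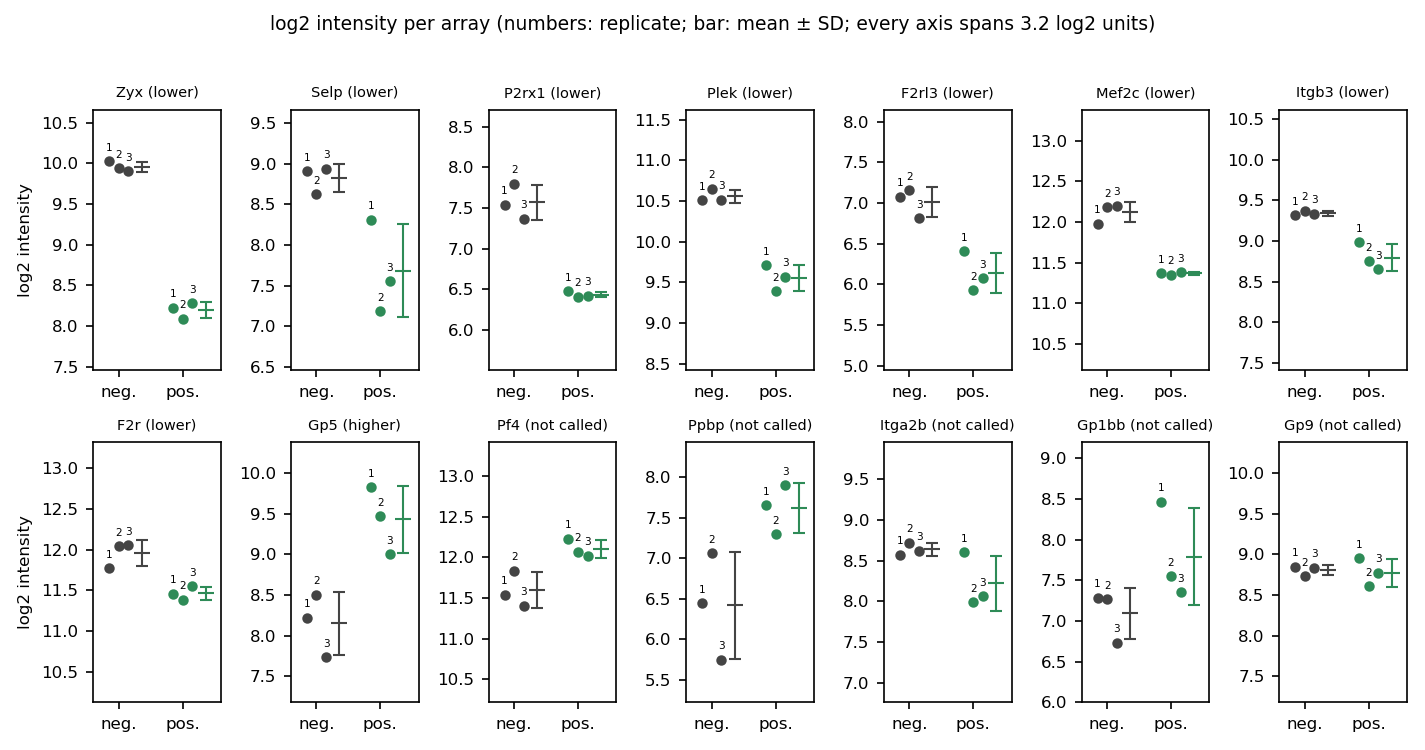
Log2 intensity of 14 members in each array (y axis; GFP-negative in grey, GFP-positive in green; numbers are replicates; bars are mean ± SD, n = 3 each). The groups do not overlap in the 9 called members nor in Pf4, Ppbp and Gp1bb, and they overlap in Itga2b and Gp9.

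Receptors for thrombin and nucleotides start and amplify platelet activation. Limma called 3 of 7 genes of this group, which also holds the G protein subunit Gng11. All 3 were lower, against 9.92% of all genes. P2rx1, a channel gated by ATP, fell from 7.54, 7.80 and 7.37 to 6.47, 6.41 and 6.42. The GFP-positive arrays lay within 0.1 of each other and far below the GFP-negative ones. The change was -1.14 ± 0.13 (SE), 2.20-fold (adjusted p = 0.00337), and both probe sets of P2rx1 were called. Of the ADP receptors, P2ry1 changed by 0.25 (adjusted p = 0.456) and P2ry12 by 0.16 (adjusted p = 0.802), with 95% intervals of -0.26 to 0.77 and -0.77 to 1.10.

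The thrombin receptors of the protease-activated family gave different values. F2rl3, protease-activated receptor 4 and the signalling thrombin receptor of mouse platelets, was at 7.08, 7.16 and 6.81 in GFP-negative and at 6.41, 5.93 and 6.08 in GFP-positive arrays. It fell 1.84-fold without overlap (adjusted p = 0.0170), a call that only the loss of GFP-negative array 3 or GFP-positive array 1 left in place (highest adjusted p 0.0633). F2rl2, receptor 3 and its cofactor on mouse platelets, changed by 0.29 (interval -0.05 to 0.62; adjusted p = 0.216).

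F2r, protease-activated receptor 1, is the thrombin receptor of human platelets and is found on other cell types in the mouse. It was at 11.78, 12.04 and 12.06 in GFP-negative and at 11.46, 11.38 and 11.55 in GFP-positive arrays. It fell 1.41-fold (adjusted p = 0.0371), and dropping any array but GFP-negative array 1 ended the call (highest adjusted p 0.122). Its other probe set changed by -0.51 but was not called (adjusted p = 0.165). F2r was not called after the array medians were subtracted. Gng11, a gamma subunit of heterotrimeric G proteins, changed by -0.45 (adjusted p = 0.157).

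The cytoskeletal genes held the largest change of the list, with 2 of 5 measured genes lower and 0 higher. Over all genes 9.92% were lower and 8.15% higher. Zyx encodes zyxin, a protein of focal adhesions and actin stress fibres. Its log2 intensity was 10.02, 9.94 and 9.91 in GFP-negative arrays and 8.23, 8.09 and 8.28 in GFP-positive arrays. The groups were far apart next to their spread: the change was -1.76 ± 0.10 (SE), 3.38-fold (adjusted p = 0.000936), and Zyx was called in all 15 alternative settings. Its second probe set, from 6.24 ± 0.29 to 5.36 ± 0.21 (SD, n = 3 each), was called lower too.

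Plek, pleckstrin, is a target of protein kinase C that is abundant in platelets and also made by monocytes and neutrophils. It fell from 10.51, 10.65 and 10.52 to 9.71, 9.39 and 9.57, again without overlap. The change was -1.0 ± 0.11 (SE; adjusted p = 0.00347), and 2 of its 3 probe sets were called. Fermt3, kindlin-3, which activates platelet integrins, was at 11.88 ± 0.39 and 11.90 ± 0.28 (SD, n = 3 each) and not called. Of its 4 probe sets 3 changed by -0.08 to 0.02, and the dimmest, near 7 in the GFP-negative arrays, changed by -0.80 (adjusted p = 0.0153).

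Tubb1, the tubulin of the marginal band that shapes the platelet, and Myl9, a light chain of myosin, pointed the other way. Tubb1 was at 5.93, 5.93 and 6.11 against 6.30, 6.53 and 6.97, without overlap, and its change of 0.61 was not called (adjusted p = 0.0755). Myl9 changed by 0.64 with overlapping groups (adjusted p = 0.182). Dropping GFP-positive array 1 brought the adjusted p of Tubb1 to 0.0447, and dropping GFP-positive array 3 that of Myl9 to 0.0435. Each was called in only 1 of the 6 fits that drop 1 array (highest adjusted p 0.183 for Tubb1 and 0.374 for Myl9).

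The remaining members were regulators, enzymes and receptors that signal through tyrosine motifs. Mef2c, a transcription factor of megakaryocytes that also acts in lymphoid and myeloid cells, fell from 11.98, 12.18 and 12.20 to 11.37, 11.35 and 11.38. All 5 of its probe sets were called lower, with changes from -0.75 to -1.49, so the probe set of highest mean gave the smallest change; the mean of all 5 changed by -1.24. Its adjusted p of 0.00537 became 0.0654 with both Jchain-bearing arrays removed, while its change was -0.71 in place of -0.75. Pdcd4, an inhibitor of translation, was at 13.35 ± 0.08 and 13.24 ± 0.09 (SD, n = 3 each) and was not called (adjusted p = 0.485).

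Limma called 0 of 3 receptor and adaptor genes with tyrosine motifs, and 1 had an unadjusted p under 0.05 (all genes: 6743 of 18193). That was Lat, the adaptor downstream of the collagen receptor, at 8.35, 8.36 and 8.36 against 8.19, 7.60 and 7.66 (adjusted p = 0.0851). Without GFP-positive array 1, the highest of its group, the adjusted p was 0.0110. That fit alone, of the 6 that each drop 1 array, called Lat (highest adjusted p 0.203). Clec1b, the podoplanin receptor, changed by -0.06 (interval -0.70 to 0.58), and the collagen receptor Gp6 stayed at 3.30 to 3.85 on all arrays, near the dim end of the table.

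Of the 2 measured eicosanoid enzymes limma called 0, and both had an unadjusted p under 0.05 (all genes: 6743 of 18193). Tbxas1, thromboxane synthase, which monocytes and macrophages also make, changed by -0.58 (adjusted p = 0.114). Alox12, the platelet lipoxygenase, changed by 0.62 (adjusted p = 0.0873) at log2 levels of 3.78 to 4.90. Gp6, P2ry12 and Alox12 had group means under 5 in both groups, so little signal stood behind their values.

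Probe sets of the same gene pointed the same way in 13 of the 15 members with several. The exceptions were Itgb3 and Fermt3. All probe sets were called lower in Mef2c, P2rx1 and Zyx. Over the 54 probe sets 17 were lower and 1 was higher, read against 7.66% and 6.35% of all probe sets. Probe sets of the same gene are not independent, and 5 of the 17 were those of Mef2c. By gene, 8 of the 32 members fell, against 9.92% of all genes.

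**Figure D3:**
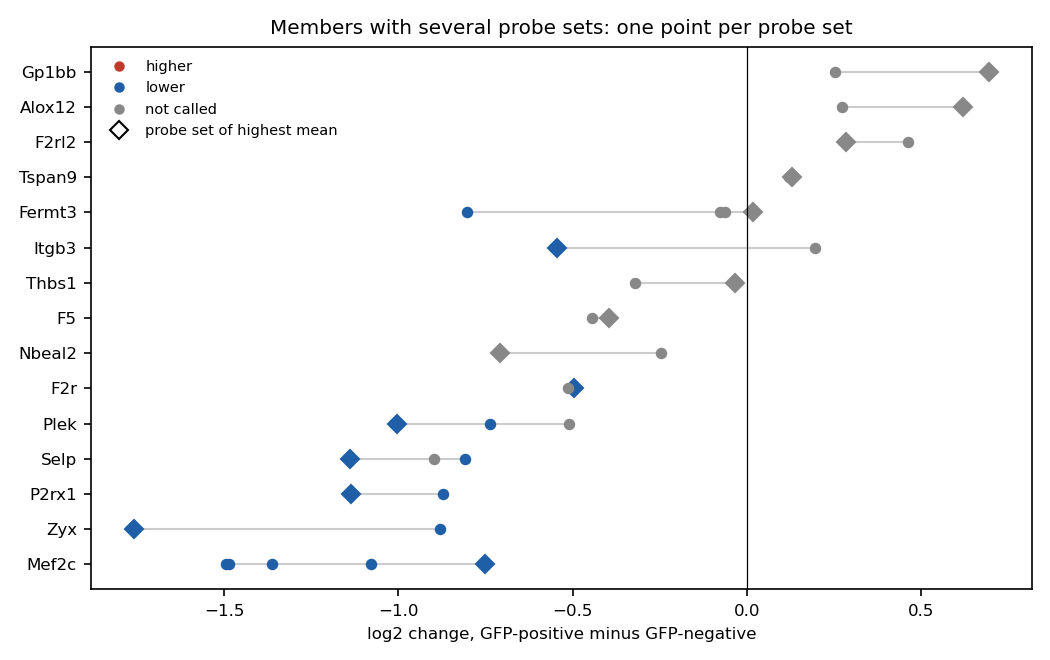
Log2 change (x axis) of each probe set of the 15 members with several (y axis; diamond, probe set of highest mean; blue, called lower; grey, not called). All 5 probe sets of Mef2c lie at -0.75 or below, and only Itgb3 and Fermt3 have probe sets on both sides of 0.

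Transcription factors and cofactors that act in megakaryocytes changed in both directions. From a list of 15 regulators, 14 were measured, of which 5 rose and 6 fell. That is 78.6% called, against 18.1% of all genes. Gfi1b, a repressor shared by the erythroid and megakaryocyte lineages, rose from 10.61, 10.50 and 10.31 to 11.57, 11.76 and 11.51 (adjusted p = 0.00283). Zfpm1, which encodes FOG1, rose 2.07-fold (adjusted p = 0.00565). Gata1 rose from 11.73, 11.65 and 11.58 to 12.33, 12.61 and 12.48, a 1.77-fold difference (adjusted p = 0.00555). The groups did not overlap in these 3 genes. Removing both Jchain-bearing arrays left Gfi1b and Gata1 called (adjusted p = 0.0371 and 0.0417). Zfpm1 then had a log2 change of 0.96 and was not called (adjusted p = 0.067).

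Etv6, Fli1 and Runx1 were among the 6 that fell. Etv6, an ETS repressor, fell 1.82-fold (adjusted p = 0.00893), a call lost when both Jchain-bearing arrays were removed (adjusted p = 0.0517). Fli1, the ETS activator of platelet genes, fell from 11.25, 11.47 and 11.49 to 10.45, 10.70 and 10.86, a 1.66-fold difference (adjusted p = 0.0189). Its size depended on the probe set: the log2 change was -0.73 here, -1.75 in the probe set of highest variance and -1.24 in the mean of all its probe sets. Dropping GFP-negative array 2 or 3 or GFP-positive array 2 ended the call of Fli1 (highest adjusted p 0.0728), as did removing both Jchain-bearing arrays (0.116). Runx1 fell 1.52-fold (adjusted p = 0.0226), a call that dropping any array but GFP-positive array 1 ended (highest adjusted p 0.0772). Removing both Jchain-bearing arrays ended it too (adjusted p = 0.0515). The log2 change of Runx1 was -0.60 here and -1.12 in the probe set of highest variance.

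Other products of megakaryocytes and platelets were lower more often than higher: of 41 listed genes 38 were measured, 3 rose and 11 fell, with a median change of -0.23. The share called was 36.8%, against 18.1% of all genes. Vwf, von Willebrand factor, rose from 7.68, 7.54 and 7.73 to 8.35, 8.21 and 8.28 without overlap (1.55-fold; adjusted p = 0.00913). With both Jchain-bearing arrays removed its log2 change was 0.64, in place of 0.63 with all arrays, and its adjusted p was 0.0701. Ltbp1, a binding protein of latent transforming growth factor beta, rose 2.68-fold (adjusted p = 0.00578), a log2 change of 1.42 that was 0.60 in the mean of its probe sets. With both Jchain-bearing arrays removed its change was 1.28 and was not called (adjusted p = 0.05). Stx11, a syntaxin needed for platelet secretion, rose 2.02-fold (adjusted p = 0.0247). Of the fits lacking 1 array, only those lacking array 1 of either group kept this call (highest adjusted p 0.0820). Removing both Jchain-bearing arrays ended it as well (adjusted p = 0.0735).

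The 3 largest falls, by the probe set of highest mean, were in genes that other blood cells also use. Rasgrp2, the exchange factor that activates Rap1 in platelets, fell 4.11-fold (10.07 ± 0.20 to 8.03 ± 0.43, SD, n = 3 each; adjusted p = 0.00334). With the mean of its probe sets the log2 change of Rasgrp2 was -1.22 in place of -2.04. Plcg2, the phospholipase downstream of the collagen receptor, fell 3.31-fold (adjusted p = 0.00166), and Alox5ap, the activating protein of 5-lipoxygenase, 3.28-fold (adjusted p = 0.00114). Over both lists 8 of 52 measured genes rose and 17 fell (48.1% called, against 18.1% of all genes). Fewer fell when GFP-negative array 2 (9 genes), GFP-negative array 3 (10) or GFP-positive array 2 (11) was dropped. Dropping GFP-negative array 1 or GFP-positive array 3 left 12 each, and only dropping GFP-positive array 1 left 17. With both Jchain-bearing arrays removed 2 rose and 5 fell.

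**Figure D4:**
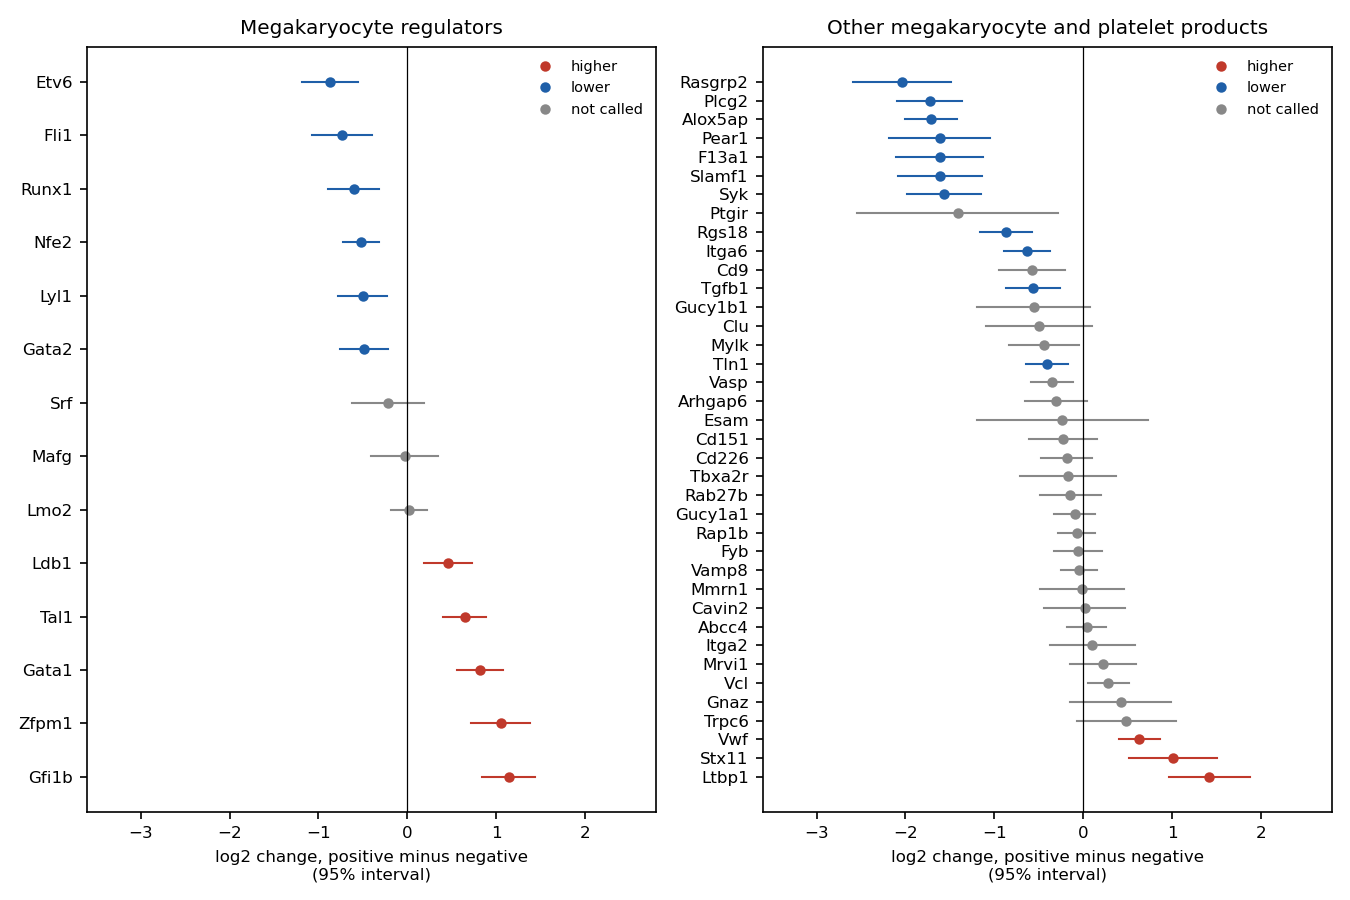
Log2 change (x axis, GFP-positive minus GFP-negative, with its 95% interval for that gene alone) of 14 regulators (left) and 38 other products (right) of megakaryocytes and platelets. Red marks genes that rose, blue genes that fell and grey genes that were not called; 5 regulators rose and 6 fell, and 3 products rose and 11 fell.

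Markers of other cell types moved in the same comparison, in which 8.15% of all genes rose and 9.92% fell. From a list of 12 genes of monocytes and dendritic cells, 9 of 11 measured fell and 0 rose, and their summed linear intensity was 28022 to 28942 in GFP-negative and 6698 to 9391 in GFP-positive arrays. Of 14 measured genes of stem and multipotent cells 9 fell and 0 rose, with sums of 16627 to 19086 and 6916 to 8000. Of 13 measured erythroid genes 10 rose and 0 fell, with sums of 49019 to 50120 and 73294 to 79607. Of 13 measured granulocyte genes 6 fell and 0 rose, with sums of 50968 to 58217 and 36653 to 42456. That list was split: Mpo, Ctsg, Elane and Prtn3, its brightest genes, fell, while 6 of the 13 lay above 0. The largest change above 0 was 2.05 in Camp, which was not called (limma adjusted p = 0.175). Of 9 measured genes of mast cells and basophils 2 rose and 5 fell, with sums of 7092 to 7895 and 3205 to 3754. For plasma and B cells 2 of 11 measured genes fell and 0 rose (4488 to 5798 and 1951 to 3195), near the share called among all genes. Those 2 were the bright genes Cd79b (10.50 to 8.65 on the log2 scale) and Ighm (9.94 to 7.97). Of the 11 genes 6 lay above 0, with a median log2 change of 0.10. For T and natural killer cells 4 of 12 rose and 1 fell (7348 to 7841 and 3598 to 5118). The sum for T and natural killer cells was carried by Nkg7, the gene that fell (12.83 to 11.67 on the log2 scale), while 9 of the 12 lay above 0 with a median log2 change of 0.56, and the granzymes Gzmb and Gzma rose 15.9-fold and 8.17-fold. Of 11 measured endothelial genes 2 rose and 4 fell, with sums of 1968 to 2196 and 1181 to 1274. F13a1 is on the monocyte list as well as the platelet list, and Slamf1 and Esam are on the stem cell list too. Gzmb is on both the T and natural killer list and the mast cell and basophil list and counts as a rise in each. The part of these cell types in the values of Plek, Zyx, Mef2c, Selp and the other members was not tested.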

How the data were processed

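Total RNA, 5 ng per sample, was amplified and biotin-labelled with NuGEN Ovation kits per the labels and hybridised to Affymetrix arrays. The deposited values are linear probe set intensity values made by the authors with RMA, per the submitters' processing notes; no source used here gives its version or settings. They ran from 4.27 to 24551 with 0 missing and were taken to log2 without further scaling. Array controls (64) were left out.

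Names came from GEO's platform annotation: of 45037 probe sets, 34945 have 1 gene, 932 several and 9160 none. The test between the 2 groups was that of limma (version 3.58.1, R version 4.3.3; lmFit, eBayes, 2-sided, all 6 arrays), with 2.38 prior degrees of freedom; the 95% intervals use the moderated statistic of that gene alone. All members were described, with values per array for called members and for Pf4, Itga2b, Gp1bb, Gp9 and Mpig6b; from each of the other megakaryocyte lists, the 3 largest rises and 3 largest falls among called genes were named, plus Vwf, Gata1 and Fli1; 1 further gene of the rule is not reported here. Mpig6b had no probe set of that symbol alone. Per-array values of any further member, and any further gene, were chosen knowing their values. The members and lists were chosen with earlier results of these data known.

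The fit was tested on simulated data. The alternatives tried were a replicate block, quantile normalization, subtracted array medians, a filter on dim probe sets, another variance prior, array weights, other probe sets and leaving out arrays. Arrays were treated as unpaired. Promoters came from RefSeq. Figures were drawn with matplotlib 3.10.9 in Python 3.11.15.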

Additional observations from a re-analysis of the deposited data

How the results depend on the processing

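The fall of Zyx, Plek and P2rx1 kept its direction and its call in all 15 alternatives. The count of members that rose, 1 with all arrays, was 2 with the replicate block, after quantile normalization, with an intensity trend and with array weights, 3 among the brighter 50% of probe sets, 4 with array medians subtracted and 5 with the mean of all probe sets of a gene. It ran from 0 to 3 with 1 array left out and was 0 without both arrays with Jchain signal, which was chosen after seeing the data. The count that fell, 8, ran from 4 to 9 with 1 array left out. The median change of members, -0.05, was -0.41 over the 26 members among the brighter probe sets, where 6 dim members were not tested. Of all probe sets, 2860 rose and 3452 fell. With array medians subtracted 5218 rose, and with 1 array left out 1212 to 2243 rose and 2192 to 3098 fell. Without both arrays with Jchain signal 681 rose and 1652 fell. For the other megakaryocyte genes, 8 rose and 17 fell; with 1 array left out 9 to 17 fell, and without both Jchain arrays 2 rose and 5 fell. The log2 change of Gp9, -0.03, turned to 0.0397 after quantile normalization and 0.0486 with array medians subtracted, and ran from -0.116 to 0.0566 with 1 array left out; it was not called in any of these. The cause of the other shifts was not tested. Of the values of single named genes 328 kept both direction and side of the threshold; 53 kept the direction and lost the call, 6 gained a call and 3 reversed. Deviations from the group mean correlated at 0.0191 to 0.0547 between arrays of the same replicate number, too weakly to pair them. With the replicate block 6 of 9 member calls were kept, F2r, Itgb3 and Selp were lost, and Alox12 and Tbxas1 were gained; among the other named genes Stx11 lost its call (adjusted p = 0.0876); each GFP-negative array correlated best with the GFP-positive array of its own number, a hint from the data and not from the design. Array medians subtracted moved the median of all genes by 0.08.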

Other observations

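Within each group, 1 array held the highest value of a member more often than of other genes. GFP-negative array 2 was the highest of its group in 17 of 32 members (53.1%), against 26.9% of all genes. GFP-positive array 1 was the highest of its group in 17 of 32 members (53.1%), against 38.1% of all genes, and these included Gp5, Gp1bb, Gp9, Itga2b, Itgb3, Selp and Lat. Members are not independent of each other, so these shares are a description without a test. Among regulators not named above, Tal1 rose by 0.65 and Ldb1 by 0.46, and Nfe2 fell by 0.52, Lyl1 by 0.50 and Gata2 by 0.49 on the log2 scale, while Lmo2, which binds Tal1 and Ldb1, changed by 0.02 (adjusted p = 0.879). Among platelet products, Pear1 fell 3.07-fold, Slamf1 3.05-fold and Syk 2.96-fold (limma adjusted p = 0.00759, 0.00424 and 0.00298), and the megakaryocyte genes Mmrn1, Cavin2 and Rab27b changed by -0.02, 0.01 and -0.15 (adjusted p = 0.967, 0.966 and 0.521). These genes were picked knowing their values.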
